A study of Mus musculus with 9 samples.

Results

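The 9 genes described here are transcription factors and markers of the pluripotent cells of the mouse blastocyst: Pou5f1, Sox2, Nanog, Klf4, Klf2, Esrrb, Tfcp2l1, Zfp42 and Tdgf1. They were chosen by name, and all 9 were among the 16070 genes listed. All 9 also passed the filter on low values, at least 1 FPKM in at least 3 libraries, which 11850 genes passed. RNA was measured as FPKM, fragment counts scaled by transcript length and by the size of the library, in 9 libraries of C57BL/6 embryos cultured in vitro to 4.5 days after microinjection, about the late blastocyst. There were 3 libraries labelled wild type (WT), 3 labelled with the H3R17H substitution, histidine for arginine at residue 17 of histone H3, and 3 labelled Carm1-/-. The label Carm1-/- stands for loss of the arginine methyltransferase that modifies that residue, and the series title ties both edits to CRISPR-Cas9 and to Yap signalling. The age of the WT libraries is also counted from microinjection, and the labels do not say what WT embryos received. The labels do not state whether the libraries stem from separate embryos, or whether each holds an embryo or cells of one. P-values therefore measure only the spread between these libraries.

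In the inner cell mass, Pou5f1 (Oct4) and Sox2 bind DNA side by side and, with Nanog, keep cells able to form every tissue of the body. Klf2, Klf4, Esrrb and Tfcp2l1 are further factors of the naive state, the one that mouse embryonic stem cells keep with the cytokine LIF, which acts through Stat3, and with Wnt signals, which act on Tcf7l1. Zfp42 (Rex1) is a zinc finger protein used as a marker of that state, and Tdgf1 (Cripto) is the cell surface co-receptor of Nodal. CARM1 activity in the early embryo is known for favouring the inner cell mass and raising Nanog and Sox2, so these genes are where an effect of either edit on cell fate would be looked for.

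Several facts of the libraries touch what follows. Carm1 stood at 6.65 to 8.86 FPKM in WT, between 0.021 and 1.88 FPKM under the label H3R17H, and between 6.44 and 12.7 FPKM under the label Carm1-/-. The targeted gene thus went against the labels, and so do the headings of the value columns, which name the opposite edit from the titles. Each direction below therefore refers to a label and not to a known genotype. The 4 Y-linked genes measured summed to at least 30.7 FPKM in all WT libraries and to 36.6 and 28.1 FPKM in replicate 1 of each edited label, and were at most 0.008 FPKM in the other 4 libraries. Summed over 19 trophectoderm markers, WT libraries held 5992 to 9034 FPKM, libraries labelled H3R17H 1893 to 5022 FPKM, and replicates 2 and 3 labelled Carm1-/- 2324 and 2828 FPKM. Replicate 1 labelled Carm1-/- stood apart from the other libraries of its label, at 9683 FPKM. Krt8 and Krt18 made up most of the trophectoderm sum in every library, with 2229 and 2663 FPKM in replicate 1 of WT. The 3 lineages of the blastocyst were all present in WT, by Nanog, by Gata6 of the primitive endoderm (21.7 to 29.0 FPKM) and by Cdx2 of the trophectoderm (5 to 10.2 FPKM). In such mixed samples, fewer cells of a type and less RNA per cell cannot be told apart.

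The stretches of DNA just before the start sites of 3 members are shown because Zfp42 and Tdgf1 had the smallest p-values against WT under the label H3R17H, with differences in opposite directions, and Nanog varied least over the libraries. Each is the 250 bases before a RefSeq start on GRCm38.p6, read along the gene's strand. Capitals mark the core of the octamer that Oct4 binds (TTTGCAT) and the core bound by Sox factors (CATTGT), both searched on both strands. The Nanog window is chr6:122707239-122707488 (plus strand), the Zfp42 window chr8:43307010-43307259 (minus strand) and the Tdgf1 window chr9:110946159-110946408 (minus strand).
Nanog: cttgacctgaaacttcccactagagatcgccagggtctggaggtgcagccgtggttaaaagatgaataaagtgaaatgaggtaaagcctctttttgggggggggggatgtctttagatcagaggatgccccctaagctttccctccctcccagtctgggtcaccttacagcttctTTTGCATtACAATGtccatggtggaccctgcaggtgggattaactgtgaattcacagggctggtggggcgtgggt
Zfp42: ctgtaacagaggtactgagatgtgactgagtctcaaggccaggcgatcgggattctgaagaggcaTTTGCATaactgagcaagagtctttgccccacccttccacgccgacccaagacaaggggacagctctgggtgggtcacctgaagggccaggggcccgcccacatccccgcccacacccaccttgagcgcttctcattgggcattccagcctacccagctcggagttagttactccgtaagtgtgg
Tdgf1: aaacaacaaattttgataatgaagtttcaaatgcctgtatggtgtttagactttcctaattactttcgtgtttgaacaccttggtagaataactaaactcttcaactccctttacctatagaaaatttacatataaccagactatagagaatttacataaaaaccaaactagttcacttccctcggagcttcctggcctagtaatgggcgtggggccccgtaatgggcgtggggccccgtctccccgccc

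In Nanog the octamer core, 75 to 69 bases before the start, stands 1 base from a Sox core on the other strand. That joint arrangement (TTTGCATNACAATG) was found in 2 of 32851 windows, both belonging to the 2 RefSeq starts of Nanog. These windows overlap, and both matches are the same bases of the genome. The Zfp42 window holds an octamer core 185 to 179 bases before the start, with no Sox core, and the Tdgf1 window holds neither. Of the 9 members, which have 12 windows, 3 had an octamer core (Nanog, Zfp42 and Sox2) and 2 a Sox core (Nanog and a second start of Pou5f1). Among all windows 4.12% held the octamer core and 10.7% the Sox core. A match of letters is not a binding site shown in these embryos.

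The members spanned a wide range of levels in WT. Tfcp2l1 was highest, at a mean of 117 ± 19.7 FPKM (SD, n = 3), above 94.6% of all genes listed. Pou5f1 followed at 64.8 ± 24.8 FPKM, then Nanog at 47.7 ± 8.58 FPKM, Zfp42 at 47.6 ± 2.39 FPKM and Tdgf1 at 46.7 ± 8.36 FPKM, each overlapping its neighbour in this order. Klf4 came next at 8.36 ± 1.21 FPKM and Klf2 at 4.38 ± 1.84 FPKM, neither overlapping the gene above it. Esrrb, at 2.61 ± 1.20 FPKM, and Sox2, at 2.18 ± 0.983 FPKM, were lowest and overlapped each other, and Esrrb overlapped Klf2. FPKM is scaled by transcript length, but the annotation behind it is not given in the sources used here, so this order of genes is only approximate. Sox2 was above only 46.6% of the genes listed. In the libraries labelled Carm1-/- Zfp42 headed the order, at 110 ± 31.9 FPKM, although it overlapped Tfcp2l1 (83.1 ± 25.2 FPKM). In those labelled H3R17H Tfcp2l1, Pou5f1 and Zfp42 overlapped at means of 92.2, 92.1 and 91.8 FPKM.

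**Figure D1:**
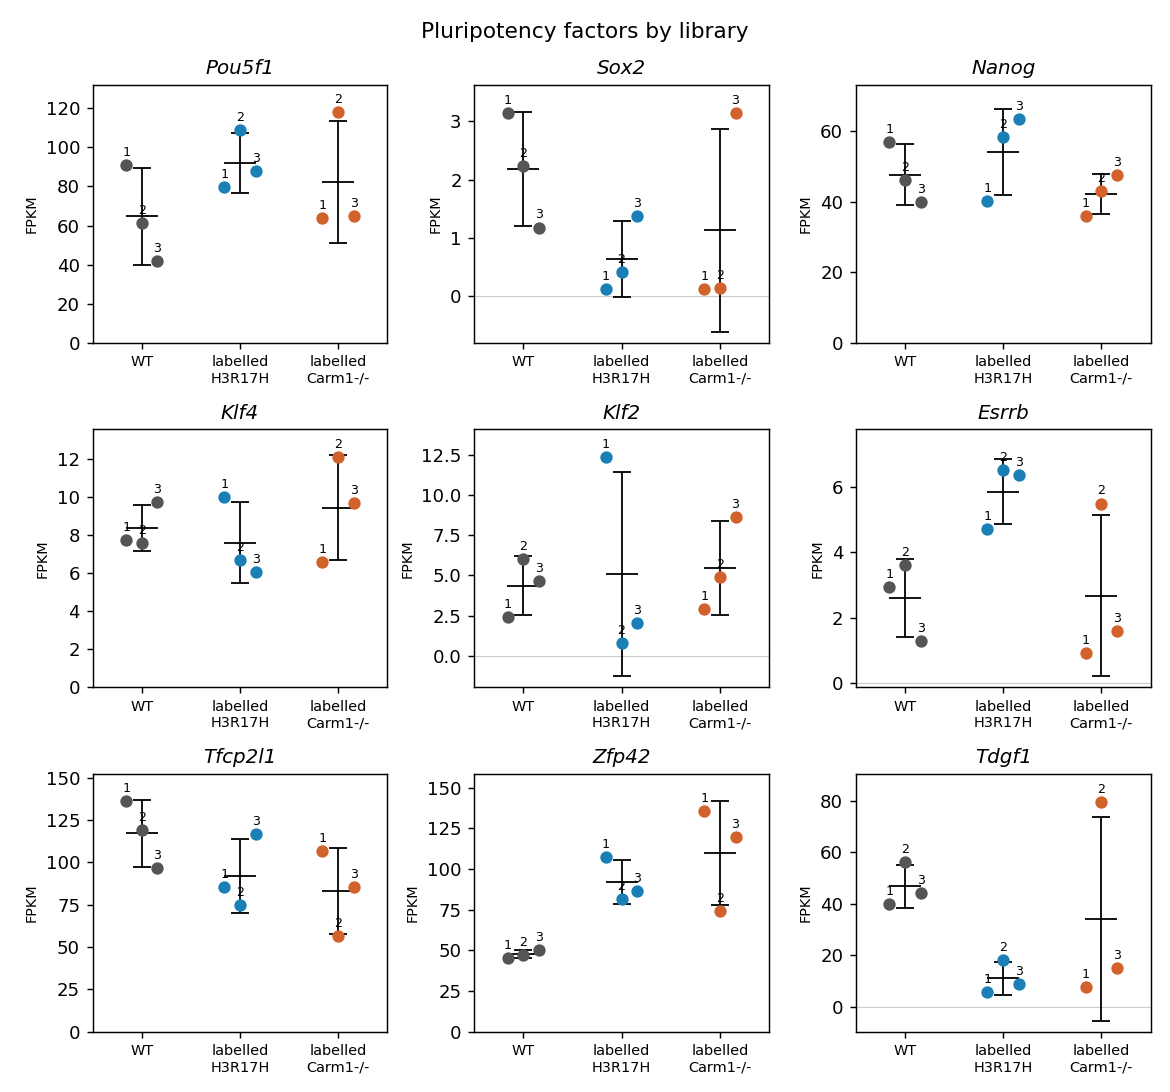
FPKM of the 9 pluripotency factors by library (numbered points), with the mean (bar) and SD (error bar) of the 3 libraries of a label; axes differ between genes. Zfp42 lies at 45.5 to 50.2 FPKM in WT and at 74.3 FPKM or more in all libraries of both edited labels, and Tdgf1 at 5.94 to 18.4 FPKM in the libraries labelled H3R17H against 39.9 to 56.1 FPKM in WT.

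Libraries labelled H3R17H and Carm1-/- were each compared with WT, and with each other, to see whether either edit moved the pluripotency network; the comparisons with WT share the same 3 WT libraries. The core factors Pou5f1, Nanog and Sox2 overlapped WT under both labels, Zfp42 had higher values under both, and Tdgf1 was low in every library labelled H3R17H. No member passed an adjusted p of 0.05 (limma, adjusted over all 11850 genes) in any of the 3 comparisons, and 0% of all genes did. At an unadjusted p under 0.05 there were 2 members in H3R17H vs WT (Zfp42 and Tdgf1), where 14.2% of all genes reached it. There was 1 in Carm1-/- vs WT (Zfp42), against 11.4%, and 1 in Carm1-/- vs H3R17H (Esrrb), against 8.21%. For 3 against 3 libraries no exact permutation test of a gene can go below a two-sided p of 0.1.

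Of the 9 members, 4 had higher and 5 lower values in H3R17H vs WT (47.7% and 52.3% of all genes), with a median log2 difference of -0.14, against -0.03 over all genes. The counts were also 4 and 5 in Carm1-/- vs WT (46.3% and 53.7% of all genes), with a median of -0.12 against -0.04. Between the edited labels, 5 were higher and 4 lower under Carm1-/- (49% and 51% of all genes). The libraries of a label did not overlap those of WT for 2 members on the higher side in H3R17H vs WT, Zfp42 and Esrrb, where 13.3% of all genes stood so. For 1 member, Tdgf1, they did not overlap on the lower side, against 15.6% of all genes. Only Zfp42, on the higher side, did not overlap in Carm1-/- vs WT, against 6.91% of all genes on that side. All 9 members overlapped in Carm1-/- vs H3R17H, where 11.2% of all genes did not. As a set the members were thus near the background of all genes, and the values of single members follow.

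Pou5f1 (chromosome 17, 35506018 to 35510772, plus strand, GRCm38) is the octamer-binding factor needed for a pluripotent inner cell mass. It measured 91.2, 61.3 and 41.9 FPKM in replicates 1, 2 and 3 of WT. Under the label H3R17H the values were 79.5, 109 and 87.7 FPKM, and under the label Carm1-/- 63.6, 118 and 64.7 FPKM. All 3 groups overlapped, and the WT libraries themselves spanned 2.17-fold. The log2 difference from WT was 0.56 (SE 0.33, limma, adjusted p = 0.465) for the label H3R17H, with a 95% interval of -0.17 to 1.29. For the label Carm1-/- it was 0.35 (SE 0.33, adjusted p = 0.705). Here and below a difference is on the log2(FPKM + 1) scale, which understates the change of genes of low level.

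Nanog, the homeobox factor that marks the epiblast once the inner cell mass divides into epiblast and primitive endoderm (chromosome 6, 122707489 to 122714633, plus strand), varied least of the 9 over the libraries. Its WT values were 56.9, 46.2 and 39.9 FPKM. Under the label H3R17H they were 40.3, 58.4 and 63.5 FPKM, and under the label Carm1-/- 36.1, 43.1 and 47.5 FPKM. The groups overlapped throughout. The log2 difference from WT was 0.17 (SE 0.25, limma, adjusted p = 0.792), with a 95% interval of -0.39 to 0.72, for the label H3R17H. It was -0.16 (SE 0.25, adjusted p = 0.824), with an interval of -0.72 to 0.39, for the label Carm1-/-. A 2-fold change of Nanog in either direction lies outside both intervals, which are those of the main fit only. With a term for Y-linked transcripts the difference was -0.135 (SE 0.27) for the label H3R17H. For the label Carm1-/- it was then -0.466 (SE 0.27), nearer to a 2-fold fall. That term is set only by how replicate 1 of each edited label differs from the other libraries of its label. All WT libraries had Y-linked transcripts, so these values rest on 1 library per edited label.

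Sox2, the partner of Oct4 on DNA (chromosome 3, 34650405 to 34652461, plus strand), was low in every library. WT libraries gave 3.14, 2.23 and 1.18 FPKM, those labelled H3R17H 0.13, 0.42 and 1.38 FPKM, and those labelled Carm1-/- 0.12, 0.14 and 3.14 FPKM. Of the edited libraries 4 were below all WT libraries, 1 was within the WT range, and replicate 3 labelled Carm1-/- equalled the highest WT library to 2 decimals, so both groups overlapped WT. The log2 difference was -0.98 (SE 0.54, limma, adjusted p = 0.434) for the label H3R17H and -0.82 (SE 0.54, adjusted p = 0.566) for the label Carm1-/-. Their 95% intervals, -2.17 to 0.22 and -2.01 to 0.37, include no change. The gene lies inside a long transcript on the same strand, Sox2ot, and the counting of reads from it is not given in the sources used here.

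Klf4 and Klf2 are related zinc finger factors that can stand in for each other in holding the naive state. Klf4 (chromosome 4, 55527143 to 55532466, minus strand) read 7.73, 7.6 and 9.76 FPKM in WT, 10.02, 6.69 and 6.06 FPKM under the label H3R17H, and 6.57, 12.1 and 9.69 FPKM under the label Carm1-/-. Its differences from WT were -0.14 (SE 0.32, limma, adjusted p = 0.864) and 0.13 (SE 0.32, adjusted p = 0.900). Klf2 (chromosome 8, 72319033 to 72321656, plus strand) read 2.4, 6.05 and 4.68 FPKM in WT and 2.9, 4.92 and 8.65 FPKM under the label Carm1-/-. Under the label H3R17H its values were 12.3, 0.82 and 2.05 FPKM, so that the highest and the lowest of all 9 libraries carried the same label, about 15-fold apart. Neither gene could be told from WT: the intervals for Klf2, -1.77 to 1.19 and -1.24 to 1.71, were wider than those for Klf4, -0.84 to 0.55 and -0.57 to 0.83, and all 4 include 0.

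Esrrb, an orphan nuclear receptor of the naive network (chromosome 12, 86361117 to 86521628, plus strand), stood at 2.94, 3.6 and 1.28 FPKM in WT. Libraries labelled H3R17H gave 4.72, 6.52 and 6.36 FPKM, all above WT, and those labelled Carm1-/- 0.93, 5.5 and 1.58 FPKM, which spread around WT. The difference from WT was 0.98 (SE 0.47, limma, adjusted p = 0.378) for the label H3R17H and -0.12 (SE 0.47, adjusted p = 0.945) for the label Carm1-/-. Between the labels it was -1.10 (SE 0.47, adjusted p = 0.588), Carm1-/- minus H3R17H. None of these passed. Tfcp2l1, which acts downstream of LIF and Stat3 in stem cells (chromosome 1, 118627945 to 118685168, plus strand), stood at 136, 119 and 96.7 FPKM in WT. Libraries labelled H3R17H gave 85.3, 74.7 and 117 FPKM and those labelled Carm1-/- 107, 56.7 and 85.6 FPKM. Of the edited libraries 4 lay below all WT libraries and 2 within their range. The differences were -0.35 (SE 0.28, adjusted p = 0.582) and -0.53 (SE 0.28, adjusted p = 0.487).

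**Figure D2:**
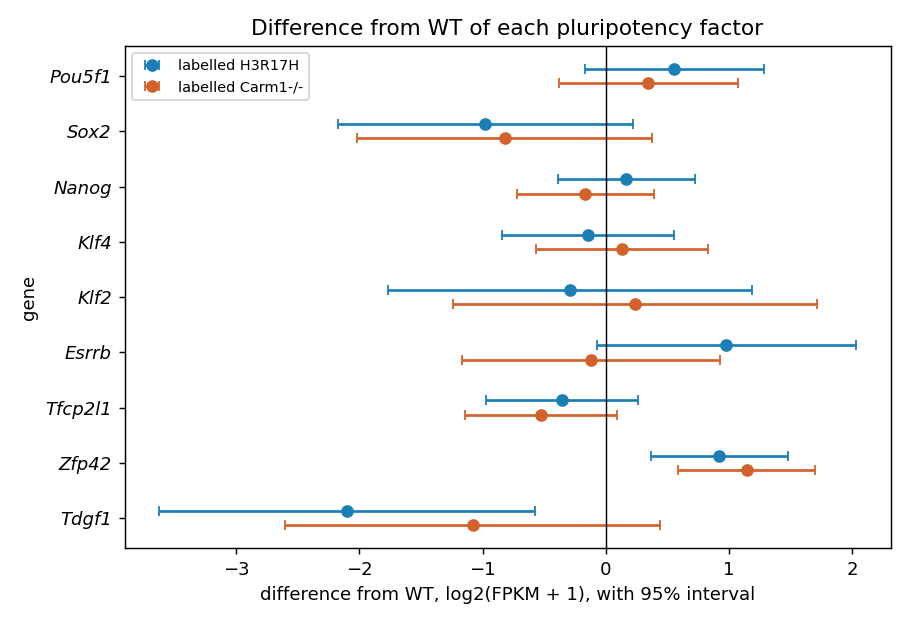
Log2 difference from WT of each factor (point) with its 95% interval from limma (bar), for the libraries labelled H3R17H (blue) and Carm1-/- (orange), 3 against 3 libraries each. The intervals of Zfp42, 0.37 to 1.48 and 0.59 to 1.70, and of Tdgf1 under the label H3R17H, -3.62 to -0.57, exclude 0 before adjustment over all genes; the other intervals include it.

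Zfp42 (chromosome 8, 43295063 to 43306980, minus strand) was the most even member in WT, at 45.5, 47.2 and 50.2 FPKM. Under the label H3R17H its values were 107, 81.8 and 86.4 FPKM, and under the label Carm1-/- 136, 74.3 and 120 FPKM. Every edited library thus lay above every WT library, and the labels overlapped each other. The ratio of mean FPKM to WT was 1.93 for the label H3R17H and 2.31 for the label Carm1-/-. On the log2 scale the differences were 0.92 (SE 0.25, limma, adjusted p = 0.224) and 1.15 (SE 0.25, adjusted p = 0.196), the smallest adjusted p of the members in each comparison. Between the labels the difference was 0.22 (SE 0.25, adjusted p = 0.861), with an interval of -0.33 to 0.78. In the libraries with Y-linked transcripts, as in all WT libraries, Zfp42 was at 107 FPKM (replicate 1 labelled H3R17H) and 136 FPKM (replicate 1 labelled Carm1-/-). With a term for Y-linked transcripts, which rests on these same replicates, the differences were 1.21 (adjusted p = 0.539) and 1.44 (adjusted p = 0.839). The library of the highest Zfp42, replicate 1 labelled Carm1-/-, was also the one of the highest trophectoderm sum, 9683 FPKM.

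Tdgf1 (chromosome 9, 110939603 to 110946158, minus strand) had the widest spread of the members on the log2(FPKM + 1) scale. Sox2 and Klf2 spanned more by fold, and Zfp42, Tfcp2l1 and Pou5f1 spanned more in FPKM. WT libraries gave 39.9, 56.1 and 44.3 FPKM, and libraries labelled H3R17H 5.94, 18.4 and 9 FPKM, all of them below WT. Those labelled Carm1-/- gave 7.56, 79.5 and 15.2 FPKM. Of the latter, replicates 1 and 3 lay below all WT libraries and replicate 2 was the highest of all 9 libraries. The ratio of mean FPKM to WT was 0.238 for the label H3R17H, and the log2 difference was -2.10 (SE 0.69, limma, adjusted p = 0.252). For the label Carm1-/- the difference was -1.08 (SE 0.69, adjusted p = 0.549), and without replicate 2 of that label it was -2.01 (SE 0.45, adjusted p = 0.286). Replicate 1 of both edited labels, the edited libraries with Y-linked transcripts, held the lowest levels, 5.94 and 7.56 FPKM. Their trophectoderm sums were 1893 and 9683 FPKM, the lowest and the highest of the series.

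Whether Zfp42 and Tdgf1 passed in H3R17H vs WT depended on a group outside that comparison. All 9 libraries share 1 estimate of the spread. With only the WT libraries and those labelled H3R17H in the fit, both passed: Zfp42 at an adjusted p of 0.045 and Tdgf1 at 0.0369 (limma), when 2.03% of all genes passed. With array quality weights, which give less weight to libraries that deviate, the adjusted p was 0.0366 for Zfp42 and 0.0364 for Tdgf1, and 1.62% of all genes passed. Over all alternatives it ran up to 0.646 for both. Without replicate 1 labelled Carm1-/-, the library that stood apart, they were 0.0806 and 0.0961, when 1.05% of all genes passed. In Carm1-/- vs WT without that library no member passed, against 4.63% of all genes, and the differences were 0.97 for Zfp42 and -0.39 for Tdgf1. For Zfp42 in Carm1-/- vs WT the adjusted p ranged over the alternatives from 0.0568, without that replicate, to 0.839. Processed pseudogene copies of Nanog, Zfp42 and Tdgf1 are annotated, 5 in all and none of them listed in the table, so reads of near-identical sequence may have been shared among copies, which was not tested.

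**Figure D3:**
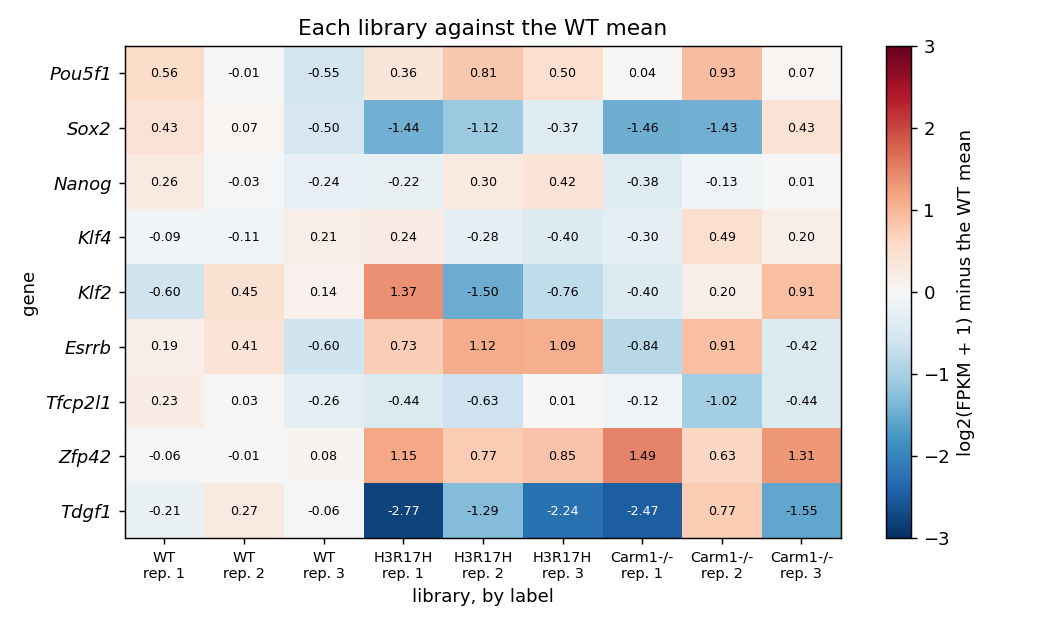
Difference of each library from the WT mean in log2(FPKM + 1), for the 9 factors (rows) in the 9 libraries (columns, by label), from blue (lower) to red (higher). Zfp42 is 0.63 to 1.49 above the WT mean in the 6 edited libraries, and Tdgf1 is 1.29 to 2.77 below it in those labelled H3R17H, while in replicate 2 labelled Carm1-/- it is 0.77 above.

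The members did not all follow a single pattern over the 9 libraries. After centring each gene on its own mean, the root mean square difference in log2(FPKM + 1) was smallest for Nanog and Pou5f1, at 0.38. It was largest for Zfp42 and Tdgf1, at 1.69. This measure also depends on how much each gene varies, so genes that vary little come out close and Tdgf1 far from all. It does not rank pairs by whether they rise and fall together. Pou5f1 and Esrrb were 0.46 apart, although Esrrb varied by 0.71 around its mean. Summed over the 9 genes, the level was 289.9 to 385.7 FPKM in WT, 345.4 to 379.1 FPKM under the label H3R17H and 355.9 to 394.5 FPKM under the label Carm1-/-, with overlapping ranges. Among 6080 genes of at least 5 FPKM on average, the pattern closest to that of Nanog was of Zfp263, at 0.06 when Nanog itself varied by 0.26 around its mean. For Pou5f1, which varied by 0.43, it was of Mybbp1a, at 0.12, and then Tbl3, at 0.15. For Zfp42, which varied by 0.55, the closest were Dpep3, at 0.25, and Surf6, at 0.27. For Tdgf1, which varied by 1.22, no gene came nearer than Arhgap19, at 0.79.

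Other genes of the naive state were read from a list of 34, of which 31 were listed and passed the filter. None passed limma's adjusted threshold in any comparison. In H3R17H vs WT 12 had higher and 19 lower values (median log2 difference -0.23, against -0.03 over all genes). Their libraries did not overlap WT for 35.5% of the list, against 28.9% of all genes. Tbx3, a T-box factor of the naive network, read 9.71, 15.2 and 5.04 FPKM in WT and 29.1, 35.8 and 28.3 FPKM under the label H3R17H, a difference of 1.65 (SE 0.38, adjusted p = 0.209). Jam2, an adhesion molecule of stem cells, went the other way, from 7.7, 10.3 and 5.16 FPKM to 0.74, 2.15 and 1.68 FPKM (-1.79, adjusted p = 0.220). Mycn, a Myc family factor, differed by -1.81 (adjusted p = 0.241). Carm1-/- vs WT had 15 higher and 16 lower, with a median of -0.11, and 19.4% did not overlap, against 16.6% of all genes. Lin28a, which blocks the microRNA let-7, read 4.03, 2.46 and 2.1 FPKM in WT and 20.6, 9.9 and 11.1 FPKM under the label Carm1-/-, a difference of 1.91 (SE 0.60, adjusted p = 0.300). Tcl1 differed by -2.13 (adjusted p = 0.266) and Tet2, which oxidises methylated DNA, by -1.87 (adjusted p = 0.336). Between the edited labels 12.9% of the list did not overlap, against 11.2% of all genes; the largest differences were those of Jam2, Tbx3 and Nr5a2, at 1.27, -1.02 and 0.49.

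Of the LIF-Stat3 pathway, 7 of 11 genes were tested, and none passed in any comparison. In H3R17H vs WT 6 of the 7 had lower values, with a median of -0.47, and 4 did not overlap WT, all on the lower side, where 15.6% of all genes stood so. In Carm1-/- vs WT 4 had lower values and 3 higher, with a median of -0.32, and 3 did not overlap on the lower side, against 9.71% of all genes. Stat3, the factor that LIF activates, measured 29.3, 45.5 and 50.1 FPKM in WT, 8.74, 10.6 and 24.2 FPKM under the label H3R17H, and 16.7, 19.9 and 21.2 FPKM under the label Carm1-/-. All 6 edited values lay below WT, and the differences were -1.56 (SE 0.37, limma, adjusted p = 0.212) and -1.04 (SE 0.37, adjusted p = 0.353). Lif itself was low, at 1.4 to 3.01 FPKM in WT against 0.52 to 1.25 and 0.42 to 0.85 FPKM, with differences of -0.75 (adjusted p = 0.358) and -0.86 (adjusted p = 0.392). Il6ra, the receptor of interleukin 6, another cytokine that acts through Stat3, differed by -0.75 (adjusted p = 0.371) in H3R17H vs WT, and Ptpn11, a phosphatase of the pathway, by -0.48 (adjusted p = 0.526) in Carm1-/- vs WT. Pim1 of the same list, the 1 tested gene with a higher value in H3R17H vs WT, differed by 0.51 (adjusted p = 0.577). In Carm1-/- vs WT it differed by 0.43 (adjusted p = 0.689). The receptor gene Lifr was not listed, and Il6st, Socs3 and Gbx2 were below the filter. Tfcp2l1, the member that acts downstream of Stat3, had differences of -0.35 and -0.53 (above). A link between these values was not tested.

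Of the Wnt-Tcf7l1 pathway 8 of 10 genes were tested, and 5 had lower values in H3R17H vs WT and 6 in Carm1-/- vs WT, with medians of -0.15 and -0.32 and none past the threshold. Tcf7l1, a repressor of Nanog and of other naive genes, read 1.13, 1.15 and 2.57 FPKM in WT, at most 0.57 FPKM under the label H3R17H and at most 0.81 FPKM under the label Carm1-/-. Its differences were -1.12 (SE 0.38, limma, adjusted p = 0.263) and -0.81 (SE 0.38, adjusted p = 0.442). Gsk3b, the kinase that marks beta-catenin for destruction, read 19.9, 21.1 and 35.8 FPKM in WT and 6.7, 14.1 and 6.66 FPKM under the label H3R17H, a difference of -1.42 (SE 0.47, adjusted p = 0.252). Lrp6, a Wnt co-receptor, differed by 0.59 (adjusted p = 0.520) in Carm1-/- vs WT and by 0.86 (adjusted p = 0.570) in Carm1-/- vs H3R17H.

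Tdgf1 serves Nodal, and 9 of the 16 genes of the Nodal-Cripto list were tested, with none past the threshold. Values were lower for 8 of them in H3R17H vs WT and for 6 in Carm1-/- vs WT, with medians of -0.34 and -0.35. Nodal itself was listed at 0 in all WT libraries and reached at most 0.38 FPKM under the label H3R17H and 2.05 FPKM under the label Carm1-/-, so it did not pass the filter. Furin, a protease that cuts the Nodal precursor, differed by -0.80 (limma, adjusted p = 0.346) and Skil, an inhibitor of Smad proteins, by -0.99 (adjusted p = 0.435) in H3R17H vs WT. The activin receptors Acvr2b and Acvr2a differed by -0.57 (adjusted p = 0.512) and -0.35 (adjusted p = 0.655) in Carm1-/- vs WT, and Smad3 by 0.88 (adjusted p = 0.563) in Carm1-/- vs H3R17H. All of these differences were smaller in size than that of Tdgf1 under the label H3R17H, -2.10.

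Genes of the later, formative and primed epiblast were scarce: 6 of 16 symbols were listed and 4 passed the filter. All 4 had lower values in both comparisons with WT, by medians of -0.89 and -0.57, and none passed. Dnmt3b, a DNA methyltransferase, read 27.9, 34.8 and 32.0 FPKM in WT and 14.97, 14.1 and 13.4 FPKM under the label H3R17H, a difference of -1.10 (SE 0.40, limma, adjusted p = 0.282). Dnmt3a differed by -0.81 (SE 0.34, adjusted p = 0.328) in the same direction.

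Markers of the other lineages are given beside these results. Summed over 16 primitive endoderm markers the level was 315.1 to 402.9 FPKM in WT, 244.8 to 281.4 FPKM under the label H3R17H, and 609.6, 177.2 and 269.7 FPKM in replicates 1 to 3 labelled Carm1-/-. Of the 14 tested, 11 had lower values in H3R17H vs WT (median -0.65). The libraries did not overlap WT for 5 of the 14 on the lower side and 1 on the higher side. Over all genes 15.6% stood so on the lower side and 13.3% on the higher side. In Carm1-/- vs WT 9 had lower values (median -0.23) and all 14 overlapped, where 16.6% of all genes did not. Pdgfra and Sparc, named after their values were seen, differed by -2.33 and -2.12 in H3R17H vs WT (limma, adjusted p = 0.175 and 0.245). Gata6, the 1 on the higher side, read 47.2, 52.4 and 36.2 FPKM under the label H3R17H, all above WT (difference 0.75, limma, adjusted p = 0.305), and 20.8, 40.1 and 33.2 FPKM under the label Carm1-/-. Between 1 and 3 of the 19 trophectoderm markers were at 0 in every library except replicate 1 labelled Carm1-/-, where none was. Of the tested trophectoderm markers, 13 of 18 had lower values in each comparison with WT, with medians of -0.88 and -0.76. Cdx2 read 10.2, 7.13 and 5 FPKM in WT, 5.7, 2.34 and 6.52 FPKM under the label H3R17H, and 12.7, 0.6 and 0.14 FPKM under the label Carm1-/-. The part of lineage makeup in the values of Zfp42 and Tdgf1 was not tested.

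**Figure D4:**
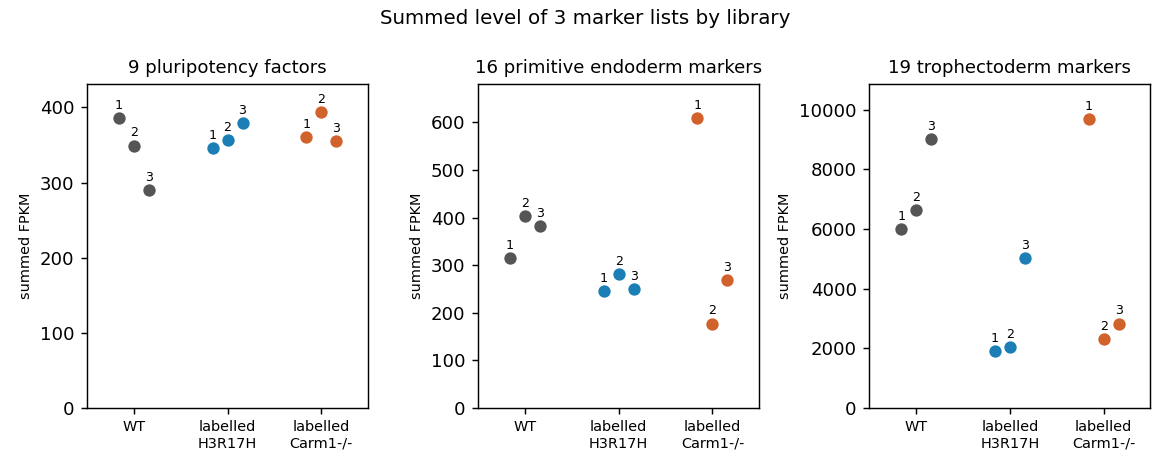
Summed FPKM of the 9 pluripotency factors, 16 primitive endoderm markers and 19 trophectoderm markers in each library (points, numbered by replicate), by label. The sums of the pluripotency factors overlap between labels (289.9 to 394.5 FPKM), while the trophectoderm sums are 1893 to 5022 FPKM under the label H3R17H, below WT, and 9683 FPKM in replicate 1 labelled Carm1-/-. Krt8 and Krt18 make up most of each trophectoderm sum.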

How the data were processed

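The values are FPKM, which the authors deposited in a single table of 9 library columns, per the file headers. Bowtie 0.12.2, mm10 and GRCm38 are named in the submitters' processing notes, without their roles. Which tool computed FPKM, and on which annotation, is not given in the sources used here. Low values showed no steps of whole reads, so depth is unknown and no counting interval is given. Columns were matched to samples by the names in the sample descriptions, and groups were taken from the titles.

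The 11850 of 16070 genes that reached 1 FPKM in 3 or more libraries were tested as log2(FPKM + 1) in a single limma fit of all 9 libraries with an intensity trend. The 3 pairwise contrasts were adjusted by Benjamini-Hochberg over all tested genes, with a threshold of 0.05. Tested on simulated data (H3R17H vs WT, 11850 genes), the fit recovered 5.97% of log2 changes of 1, 55.2% of changes of 2 and 80.3% of changes of 3. The simulated noise was normal, independent between genes and libraries, and equal in spread for all 3 groups. It held no library that stood apart, so these percentages need not hold for the real libraries. The members and lists were chosen with earlier results of these data known. Named beside the members were Carm1, Gata6, Cdx2, up to 3 non-overlapping genes with the largest difference per list and comparison, and, for some members, the closest of the 2 genes of nearest pattern (mean of at least 5 FPKM, no predicted models). Not every gene the rule names is printed.

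Alternatives changed the pseudocount (0.1 or 5), the filter (none, or a mean of 5 FPKM), the scaling (median-of-ratios or quantile) and the model. The model was refitted without the trend, with array quality weights, on the compared groups alone, with a replicate block, with a term for Y-linked transcripts (4 genes summing to 1 FPKM or more), and without each library. Gene coordinates count from 1 on GRCm38 (GENCODE M21), and promoter windows are from RefSeq on GRCm38.p6, matched by symbol for all 9 members. Software was R 4.3.3, limma 3.58.1, Python 3.11.15, pandas 2.3.3, numpy 2.4.6, scipy 1.17.1 and matplotlib 3.10.9.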

Additional observations from a re-analysis of the deposited data

How the results depend on the processing

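Over 531 values of the members under the alternatives, 512 kept their direction and their side of the threshold, 4 came to pass and 15 changed sign. The 4 were Zfp42 and Tdgf1 in H3R17H vs WT, with array quality weights (2 members past the threshold) and with only the groups compared (2 members). Over all genes, H3R17H vs WT went from 0 to 1 gene with a pseudocount of 5, 192 with array quality weights and 240 with only the groups compared, and to between 0 and 125 without one library, the most without replicate 1 labelled Carm1-/-. Carm1-/- vs WT went to 1 with a pseudocount of 0.1 and 1 with array quality weights, and to between 0 and 549 without one library, the most without that same replicate. Carm1-/- vs H3R17H went to 1 with a pseudocount of 0.1, 1 with a pseudocount of 5, 2 with median-of-ratios scaling, 2 with quantile normalization, 3 with no trend, and to between 0 and 10 without one library. The causes were not tested.

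With a term for Y-linked transcripts Nanog turned to -0.135 and Klf2 to 0.223 in H3R17H vs WT, and with a pseudocount of 0.1 Sox2 turned to -0.018 in Carm1-/- vs H3R17H. Without one library, Klf2 ranged from -1.125 to 0.31 in H3R17H vs WT, from -0.099 to 0.555 in Carm1-/- vs WT and from -0.073 to 1.361 in Carm1-/- vs H3R17H. In Carm1-/- vs WT Klf4 ranged from -0.05 to 0.345 and Esrrb from -0.633 to 0.245, and in Carm1-/- vs H3R17H Sox2 ranged from -0.467 to 0.478 and Tfcp2l1 from -0.374 to 0.078. With a mean of at least 5 FPKM Sox2, Klf2 and Esrrb were not tested. With the replicate block 0 members and 0 genes passed in each comparison, as without it. The correlations of same-numbered libraries ran from -0.05 to 0.18. The labels do not say that the number pairs libraries, and correlations among so few libraries cannot decide it.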

Other observations

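Sox15, an epiblast marker related to Sox2, was named after its values were seen. WT libraries gave 47.3, 40.3 and 46.0 FPKM, those labelled H3R17H 195, 153 and 85.5 FPKM, and those labelled Carm1-/- 49.8, 260 and 166 FPKM. All edited libraries lay above all WT libraries, and the log2 differences were 1.60 (SE 0.52, limma, adjusted p = 0.248) and 1.52 (SE 0.52, adjusted p = 0.329). Sox2 itself had differences of -0.98 and -0.82. Replicate 1 labelled Carm1-/-, the edited library nearest to WT in Sox15, had the highest Zfp42 of the series, at 136 FPKM.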
